A study of Mus musculus with 3008 samples.

Results

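The regulators of G protein signalling described here are the 7 genes Rgs1, Rgs2, Rgs3, Rgs10, Rgs14, Rgs16 and Rgs19, found by symbol in a count table of 23725 mouse genes. They were followed in Foxp3+ regulatory T cells (Tregs), the suppressive branch of the CD4+ T cell lineage. Colon Tregs, from the lamina propria under the gut epithelium, made 2 libraries called colon 1 (20.6% of 3008 cells) and colon 2 (1772 cells, 58.9%), and spleen Tregs made 1 library (20.5%). All groups were male mice of the B6 Foxp3-Ires-Gfp strain aged 7 months, in which green fluorescent protein reports Foxp3 transcription, and live TCRb+ CD4+ GFP+ cells were sorted. Colons were digested with collagenase and dispase while spleens were broken up mechanically, so tissue and dissociation cannot be told apart in any comparison of colon with spleen. The labels name no animal, and they call the second colon library a second replicate in its title but give it the number of the first in its sample type. Each tissue was therefore treated as 1 sample, and no p-value across animals could be had.

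RGS proteins share a domain that speeds the hydrolysis of GTP by G protein alpha subunits, and so shorten the signal that a G protein-coupled receptor sends. In lymphocytes they tune the response to chemokines and to lipid, purine and prostaglandin ligands. By their domains Rgs1, Rgs2, Rgs3 and Rgs16 belong to the R4 subfamily, Rgs10 and Rgs14 to the R12 subfamily, and Rgs19 to the RZ subfamily. R4 proteins act on alpha subunits of the Gi class, the Gq class or both, whereas R12 and RZ proteins act mainly on the Gi class.

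The cells of colon 1, colon 2 and spleen held 1253246, 3916649 and 1255946 unique molecular identifiers (UMIs, tags that mark single captured RNA molecules), with medians of 1767, 2026.5 and 1847 UMIs per cell. Reads per UMI were lower in colon 2, at 26.7, against 61.6 in colon 1 and 58.7 in spleen. Ribosomal protein genes took 17.2% and 15.97% of UMIs in colon 1 and colon 2 and 27.7% in spleen. Foxp3 stood at 452.4 and 306.1 UMIs per 1000000 (CPM) in colon 1 and colon 2 and at 281.9 CPM in spleen. Of the defining markers of other cell types, Cd79a of B cells was in at most 0.164% of the cells of any library after thinning to 1000 UMIs per cell, and Csf1r, S100a8 and Cdh5 had no UMI in those cells. Other genes of these lists were present, with Cd74 in 2.95%, 5.16% and 4.24% of cells of colon 1, colon 2 and spleen, Cst3 in 15.9%, 15.02% and 8.65%, Csf3r in 3.28%, 2.47% and 4.40%, Pecam1 in 2.79%, 3.38% and 6.69%, Cd8b1 in 3.93%, 3.44% and 5.71%, and Epcam in 2.30%, 4.13% and 2.61%. Their part in the Rgs levels was not tested. Between libraries 25 pairs of cells shared a barcode, 9 of them between colon 1 and colon 2, 5 between colon 1 and spleen and 11 between colon 2 and spleen. All intervals below are 95% exact intervals and cover counting error only. The counting interval of a mean log2 ratio is the exception, since its bounds are those of both colon ratios over spleen, averaged. The UMIs of a gene gather in some cells, with a variance over the mean per thinned cell of 3.92, 3.18 and 2.83 for Rgs2 in colon 1, colon 2 and spleen, so the intervals are narrower than the spread between cells.

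The genes lie on 5 chromosomes of the mm10 build. Rgs2 (chromosome 1, 143999338 to 144004161, minus strand) and Rgs1 (144242296 to 144249242, minus strand) are 238.1 kb apart, and Rgs16 (153740349 to 153745468, plus strand) lies 9.49 Mb further along the same chromosome. Rgs3 is on chromosome 4 (62559847 to 62704001, plus strand), Rgs10 on chromosome 7 (128373621 to 128418758, minus strand), Rgs14 on chromosome 13 (55369732 to 55384687, plus strand) and Rgs19 on chromosome 2 (181688419 to 181693977, minus strand). An antisense gene overlaps exons of Rgs16, and whether the counting used strand is not given in the sources used here. Rgs14 is also an older name of Rgs16, but the count table holds both symbols as separate rows.

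Promoter windows were available from RefSeq (GRCm38.p6) for 5 of the 7 genes in 8 windows. The 250 bases before the start are shown for Rgs2 and Rgs16, R4 genes of the same chromosome whose levels differed in opposite directions between the tissues. The window is chr1:144004150-144004399 on the minus strand for Rgs2 and chr1:153740103-153740352 on the plus strand for Rgs16. Both are written 5′ to 3′ along the gene's strand, with capitals marking TGACG or its reverse complement CGTCA, the core of the cAMP response element.
Rgs2: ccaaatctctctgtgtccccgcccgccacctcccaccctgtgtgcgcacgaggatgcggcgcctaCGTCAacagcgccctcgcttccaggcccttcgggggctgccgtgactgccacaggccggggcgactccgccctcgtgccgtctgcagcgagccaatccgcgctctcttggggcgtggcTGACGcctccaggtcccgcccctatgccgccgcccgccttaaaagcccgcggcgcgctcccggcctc
Rgs16: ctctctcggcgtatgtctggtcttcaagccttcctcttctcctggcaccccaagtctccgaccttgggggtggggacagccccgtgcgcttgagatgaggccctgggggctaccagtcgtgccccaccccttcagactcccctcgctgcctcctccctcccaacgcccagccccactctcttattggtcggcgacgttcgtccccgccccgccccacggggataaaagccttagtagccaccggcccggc
The Rgs2 window held 2 of these cores, and the Rgs16 window and the other 6 windows of Rgs3, Rgs10 and Rgs19 held 0. Of 32851 mouse windows of this length, 17.8% held at least 1 core and 3.90% held at least 2. Neither the full element TGACGTCA, found in 1.55% of all windows, nor the AP-1 motif TGANTCA, found in 6.75%, was in any of the 8 windows on either strand. A core can be part of a full element and was then counted for both. These matches describe letters in the windows only.

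Rgs2 was about 4-fold higher in colon Tregs, Rgs3 and Rgs19 were 2.39 to 4.38 times lower, Rgs1 was level, and Rgs10, Rgs14 and Rgs16 lay lower by smaller ratios. With a ratio of at least 2 in both colon libraries as the threshold, 1 of the 6 eligible genes was higher (Rgs2) and 2 were lower (Rgs3 and Rgs19). A gene was eligible with at least 50 CPM in spleen or in both colon libraries, and Rgs16 was not. Rgs3, Rgs14 and Rgs19 reached it only in spleen, where they were higher, so the minimum favoured lower ratios for them. With no minimum the same counts held over all 7 genes, 1 higher and 2 lower, beside 10.4% higher and 5.40% lower of the 9580 genes with at least 30 UMIs. Over all 3482 eligible genes, 11.7% were higher and 4.45% were lower. The median log2 ratio of the 7 genes was -0.97 in colon 1 and -0.68 in colon 2, beside 0.00 and 0.01 over all 9580 genes with at least 30 UMIs.

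**Figure D1:**
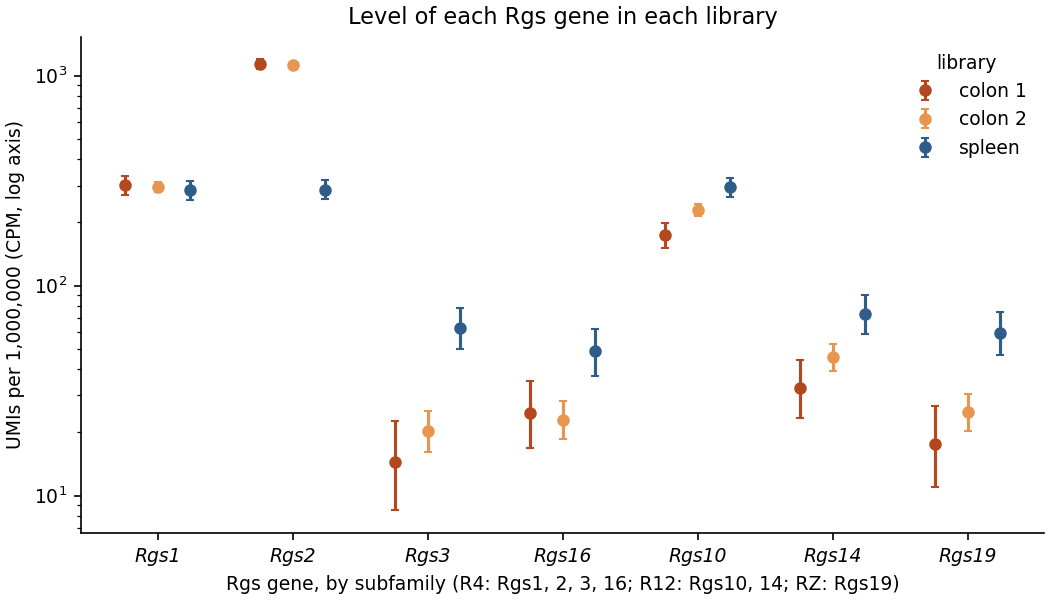
Level of each Rgs gene in UMIs per 1,000,000 (CPM, log axis) in colon 1, colon 2 and spleen, with 95% exact Poisson intervals as bars. Levels can be read across libraries for 1 gene, not between genes. Rgs2 stood at 1137.05 and 1123.2 CPM in the colon libraries and 286.6 CPM in spleen, Rgs1 overlapped in all 3 libraries, and the other 5 genes were lower in both colon libraries.

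In the R4 subfamily, Rgs2, which acts chiefly on Gq class alpha subunits and also inhibits some adenylyl cyclases, was the most counted of the 7, with 6184 UMIs in all. Its level stood at 1137.05 CPM (1078.8 to 1197.7) in colon 1 and 1123.2 CPM (1090.2 to 1156.8) in colon 2, against 286.6 CPM (257.8 to 317.8) in spleen. Both colon libraries lay far above spleen and their intervals overlapped each other. The log2 ratio over spleen reached 1.99 (1.82 to 2.16) for colon 1 and 1.97 (1.81 to 2.13) for colon 2, or 3.97-fold and 3.92-fold. By the mean of both log2 ratios Rgs2 was among the highest 5.34% of the 3482 eligible genes.

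Rgs1, which damps chemokine receptor signals and is transcribed quickly in stimulated lymphocytes, had levels of 300.02 CPM (270.5 to 331.9) in colon 1 and 295.7 CPM (278.9 to 313.2) in colon 2, against 285.04 CPM (256.3 to 316.2) in spleen. All 3 intervals overlapped. The log2 ratios were 0.07 (-0.14 to 0.29) and 0.05 (-0.12 to 0.23). By counting error alone a difference of 0.29 in size fits in these intervals, and spread between cells and animals is not covered. The variance over the mean per thinned cell was 3.15, 2.32 and 2.43 for Rgs1 in colon 1, colon 2 and spleen. With ribosomal protein genes left out of the totals, the mean turned to -0.14 while the median of all eligible genes went to -0.19.

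Rgs3, which acts on both the Gi and the Gq class, was the lowest of the 7 genes in colon relative to spleen. It had 18 UMIs in colon 1, 80 in colon 2 and 79 in spleen, or 14.4 CPM (8.51 to 22.7) and 20.4 CPM (16.2 to 25.4) in the colon libraries and 62.9 CPM (49.8 to 78.4) in spleen. The log2 ratio came to -2.13 (-2.96 to -1.38) for colon 1 and -1.62 (-2.09 to -1.16) for colon 2. The spleen interval overlapped neither colon interval.

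Rgs16, known in T cells for limiting migration to chemokines, had 31 UMIs in colon 1, 90 in colon 2 and 61 in spleen. Levels of 24.7 CPM (16.8 to 35.1) and 22.98 CPM (18.5 to 28.2) in colon stood against 48.6 CPM (37.2 to 62.4) in spleen. The log2 ratios were -0.97 (-1.65 to -0.33) and -1.08 (-1.56 to -0.59), just short of 2-fold in colon 1 and just past it in colon 2.

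In the R12 subfamily, Rgs10, a short protein that acts on Gi class subunits, had levels of 173.9 CPM (151.6 to 198.6) in colon 1 and 229.3 CPM (214.5 to 244.8) in colon 2, against 294.6 CPM (265.3 to 326.2) in spleen. No 2 of the 3 intervals overlapped, and the colon libraries differed by a log2 ratio of 0.40 (0.18 to 0.62) for colon 2 over colon 1. The ratio over spleen came to -0.76 (-1.01 to -0.51) for colon 1 and -0.36 (-0.54 to -0.18) for colon 2, so the size of the difference from spleen depended on the colon library.

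Rgs14, which joins its RGS domain to a GoLoco motif that binds Gi alpha subunits, stood at 32.7 CPM (23.5 to 44.4) and 45.7 CPM (39.3 to 52.9) in the colon libraries and 73.3 CPM (59.1 to 89.8) in spleen, with both colon intervals below the spleen interval. The log2 ratios of -1.16 (-1.73 to -0.62) and -0.68 (-1.05 to -0.30) fell on either side of 2-fold.

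Rgs19 of the RZ subfamily, also called GAIP for its action on Gi alpha subunits, had 22 UMIs in colon 1, 98 in colon 2 and 75 in spleen. It stood at 17.6 CPM (11.001 to 26.6) and 25.02 CPM (20.3 to 30.5) in the colon libraries and at 59.7 CPM (46.97 to 74.9) in spleen. The log2 ratios were -1.77 (-2.52 to -1.06) and -1.25 (-1.70 to -0.80), and the spleen interval lay above both colon intervals.

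**Figure D2:**
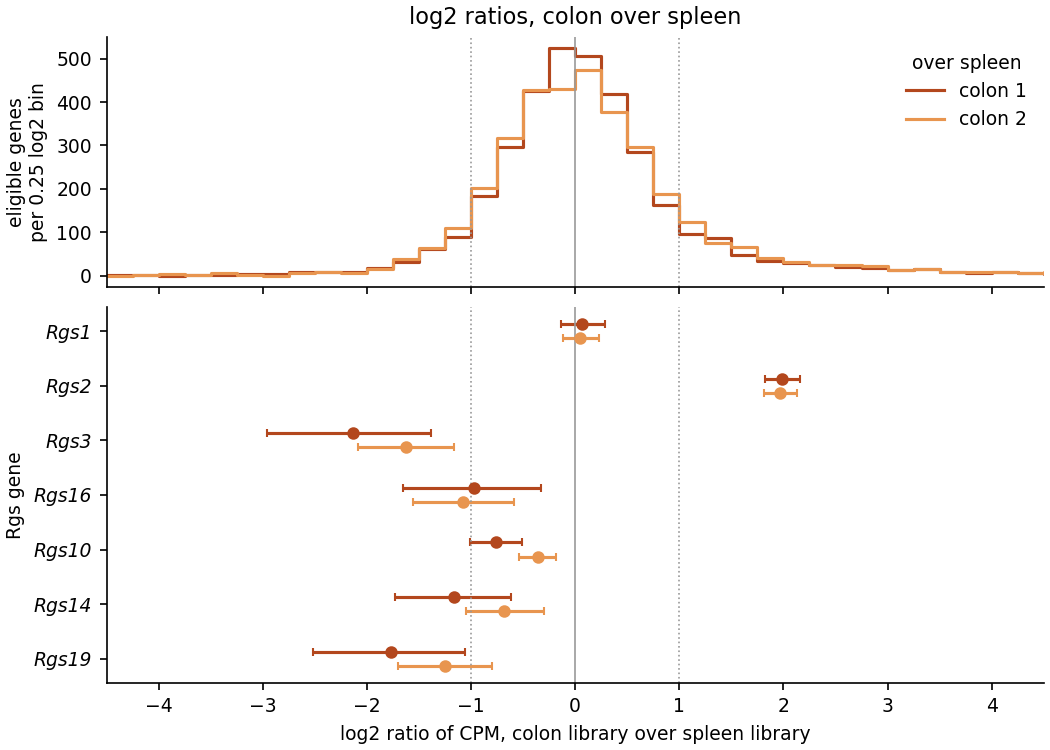
The upper panel counts eligible genes per bin of the log2 ratio of each colon library over spleen. Counts below 3 were raised to 3 for that panel, and the axis leaves out the outermost bins. The lower panel gives the log2 ratio for each Rgs gene with its 95% exact interval. Dotted lines mark 2-fold. Rgs2 sits at 1.99 and 1.97 in the upper tail, Rgs3 and Rgs19 lie past the lower line in both libraries, and Rgs1 sits at 0.07 and 0.05.

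A UMI of Rgs2 was found in more colon cells, and in more copies per cell. Every cell was thinned to 1000 UMIs, and cells below that depth, 9 in colon 1, 28 in colon 2 and 4 in spleen, were dropped. Rgs2 was then in 43.3% of colon 1 cells (39.3 to 47.3), 45.9% of 1744 colon 2 cells (43.5 to 48.2) and 15.2% of spleen cells (12.4 to 18.3). The unthinned shares were 52.7%, 58.2% and 20.6%. Cells with 3 or more Rgs2 UMIs made 18.03% of colon 1 (15.1 to 21.3), 15.8% of colon 2 (14.1 to 17.6) and 3.43% of spleen (2.13 to 5.19). A positive cell held on average 2.85 Rgs2 UMIs in colon 1 and 2.56 in colon 2, against 1.94 in spleen. The sort holds no cell type known to lack these genes, so a background share from free RNA was not measured.

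Rgs1 was in 17.2%, 20.1% and 15.99% of thinned cells of colon 1, colon 2 and spleen, with overlapping intervals. Rgs10 was in 12.1% of colon 1 cells (9.65 to 14.99) and 16.6% of colon 2 cells (14.9 to 18.4), against 21.5% of spleen cells (18.3 to 25.002). Thinned to 500 UMIs instead, Rgs10 was in 7.11% (5.21 to 9.43), 10.1% (8.74 to 11.6) and 9.89% (7.65 to 12.5) of colon 1, colon 2 and spleen cells, so the share in colon 2 was no longer below that in spleen. Unthinned, Rgs1 was in 23.9% (20.6 to 27.5), 30.4% (28.3 to 32.6) and 21.7% (18.5 to 25.2) of colon 1, colon 2 and spleen cells. The colon 2 interval then lay above the others, with depth not matched between libraries. The unthinned Rgs10 shares were 21.3%, 28.8% and 34.8% in the same order. Rgs3 was in 1.48% and 2.06% of colon cells and 4.73% of spleen cells. The shares of Rgs19 were 1.64% and 2.58% in the colon libraries and 6.04% in spleen. Those of Rgs14 were 2.95% (1.76 to 4.62) and 3.38% (2.59 to 4.34) in the colon libraries and 6.04% (4.29 to 8.22) in spleen, with slightly overlapping intervals. Thinned to 500 UMIs, where the spleen draw held 13 Rgs19 UMIs, Rgs19 was in 0.969% (0.357 to 2.10), 1.02% (0.603 to 1.60) and 2.11% (1.13 to 3.58) of colon 1, colon 2 and spleen cells, with overlapping intervals. The Rgs3 intervals of colon 1 (0.357 to 2.10) and spleen (1.61 to 4.37) then overlapped too. Rgs16 shares of 2.13% and 2.12% in colon and 2.77% in spleen had overlapping intervals. The rarer genes were mostly seen as 1 UMI per cell, with a mean of at most 1.54 UMIs in positive cells for Rgs3, Rgs14, Rgs16 and Rgs19.

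**Figure D3:**
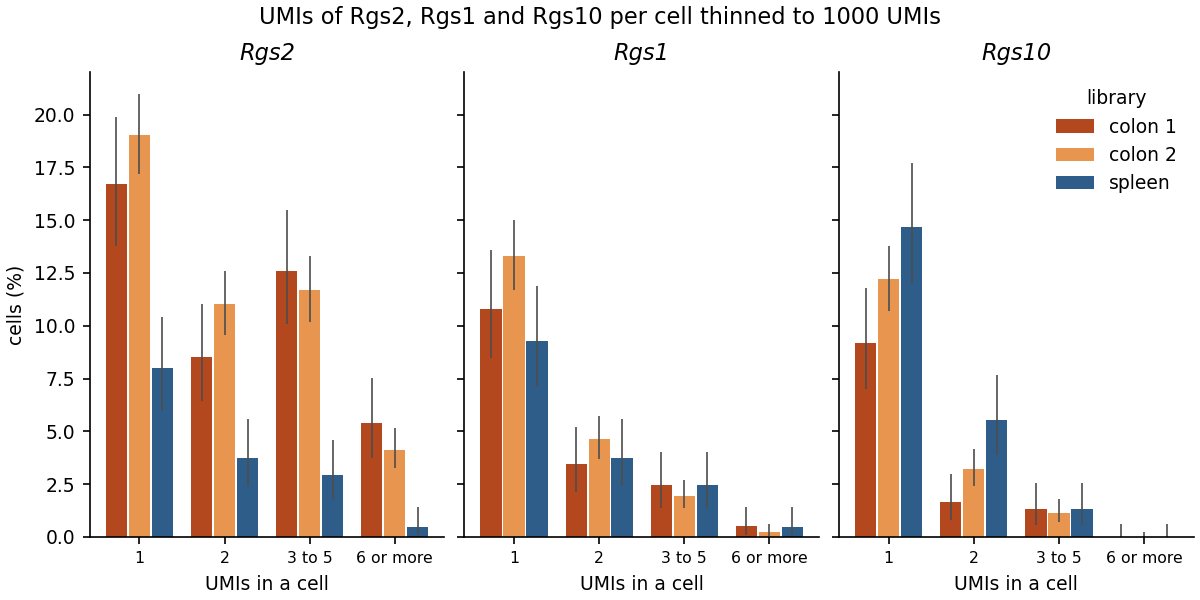
Share of cells (%) holding 1, 2, 3 to 5, or 6 or more UMIs of Rgs2, Rgs1 and Rgs10 after thinning to 1000 UMIs per cell, in colon 1, colon 2 and spleen, with 95% exact binomial intervals. Cells with 6 or more Rgs2 UMIs made 5.41% of colon 1 and 4.13% of colon 2 against 0.489% of spleen, while Rgs1 bars overlap and Rgs10 bars at 1 and 2 UMIs are tallest in spleen.

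Most cells held a UMI of at most 1 of the 7 genes. None was seen in 40.5% of thinned colon 1 cells, 33.7% of colon 2 cells and 46.003% of spleen cells, and exactly 2 were seen in 15.7%, 18.2% and 12.4% in the same order. Rgs2 was in 45.7% of Rgs1-positive and 42.8% of Rgs1-negative colon 1 cells, in 48.7% and 45.2% of those of colon 2, and in 20.4% and 14.2% of those of spleen. The share was higher in Rgs1-positive cells in each library, but each pair of intervals overlapped, so a difference in either direction was not resolved at this depth. Rgs10 was in 17.8% of Rgs2-positive cells (13.4 to 22.96) and 7.80% of Rgs2-negative cells (5.21 to 11.2) of colon 1, but in 16.9% (14.3 to 19.7) and 16.3% (14.01 to 18.8) of those of colon 2, and in 15.1% (8.48 to 23.97) and 22.7% (19.2 to 26.5) of those of spleen. The intervals lay apart in colon 1 and overlapped in colon 2 and in spleen, where the order was the other way. This was 1 of 21 pairs of members looked at in each library.

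Cells of all libraries were clustered without the 7 Rgs genes, so that their levels in each cluster were not used to make it. Genes of T cell receptors, immunoglobulins, ribosomal proteins and mitochondria were left out as well. So were mitochondrial ribosomal protein genes and genes with only a provisional name, such as Gm or Rik names. Of 7 clusters, cluster 0 (Id3, Nsg2 and Igfbp4 among its 10 leading genes) held 1.94% of colon 1, 1.75% of colon 2 and 97.9% of spleen cells. The colon cells were mainly in cluster 5 (Emp1, Mmp9, Irf4 and Hspa1a), cluster 6 (Penk, Il1rl1, Gata3 and Areg) and cluster 2 (Ccr7, Hey1 and Bcl6). Smaller clusters were led by Igfbp7 and Tmem176b (cluster 3), by Iigp1 and Ifit1 (cluster 1) and by the division genes Birc5 and Top2a (cluster 4). Clusters are called by number, and values are given for clusters with at least 30 cells of a library.

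Rgs2 was above its spleen level in every colon cluster measured, and was highest in cluster 2. It stood there at 1637.2 CPM (1444.6 to 1848.4) in colon 1 and 1696.7 CPM (1595.9 to 1802.2) in colon 2, followed by cluster 6 with 1367.4 CPM (1249.5 to 1493.3) and 1397.1 CPM (1330.02 to 1466.6). Cluster 5 had 1070.9 CPM (979.5 to 1168.6) in colon 1 and 779.1 CPM (727.8 to 833.1) in colon 2, which did not overlap. The lowest colon value was 631.8 CPM (511.1 to 772.3) in cluster 4 of colon 2, and over both libraries cluster 2 exceeded cluster 3 by 2.16-fold (log2 1.11, 0.97 to 1.26), the extremes among clusters with at least 100 colon cells. In cluster 0, the 31 colon 2 cells had 1026.2 CPM (790.3 to 1310.4) and the spleen cells 293.8 CPM (264.1 to 325.96).

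Rgs10 also peaked in cluster 2, at 370.1 CPM (281.7 to 477.4) in colon 1 and 470.8 CPM (418.4 to 527.9) in colon 2, where both colon values were as high as or above the 291.4 CPM (261.8 to 323.4) of spleen cells in cluster 0. In cluster 6 it was at 157.5 CPM (119.3 to 203.998) and 141.6 CPM (120.8 to 164.9), and in cluster 5 at 118.99 CPM (89.9 to 154.5) and 215.1 CPM (188.5 to 244.3). Colon 2 was higher than colon 1 in clusters 1, 2 and 5 and lower in cluster 6, and of these clusters only cluster 5 had intervals that lay apart. Over both colon libraries cluster 2 exceeded cluster 6, the lowest, by 3.10-fold (log2 1.63, 1.38 to 1.88), but in colon 1 cluster 5 was lower than cluster 6.

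Rgs1 was highest in cluster 5, with 444.1 CPM (385.9 to 508.6) in colon 1 and 378.2 CPM (342.7 to 416.4) in colon 2. It was at 201.6 CPM (158.1 to 253.5) and 267.7 CPM (238.9 to 299.2) in cluster 6, at 276.01 CPM (200.5 to 370.5) and 228.2 CPM (192.2 to 268.9) in cluster 2, and at 281.5 CPM (252.4 to 312.97) in spleen cells of cluster 0. A level total between the tissues thus joined a colon cluster above spleen with others at or below it. Fosb, Hspa1a and Hspa1b are genes that respond to dissociation and heat. Cells with a UMI of any of them made 41.7% and 43.9% of the colon 1 and colon 2 cells in cluster 5. In the same order, such cells made 33.9% and 43.2% in cluster 6, and 13.2% and 19.4% in cluster 2. The part of these cells in the Rgs1 value was not tested by cluster. Rgs14 reached 67.4 CPM (52.9 to 84.7) in cluster 5 of colon 2 but 36.1 CPM (21.04 to 57.8) in colon 1. The counts of Rgs3, Rgs16 and Rgs19 were 0 to 33 UMIs per colon cluster and library, too few to order the clusters.

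**Figure D4:**
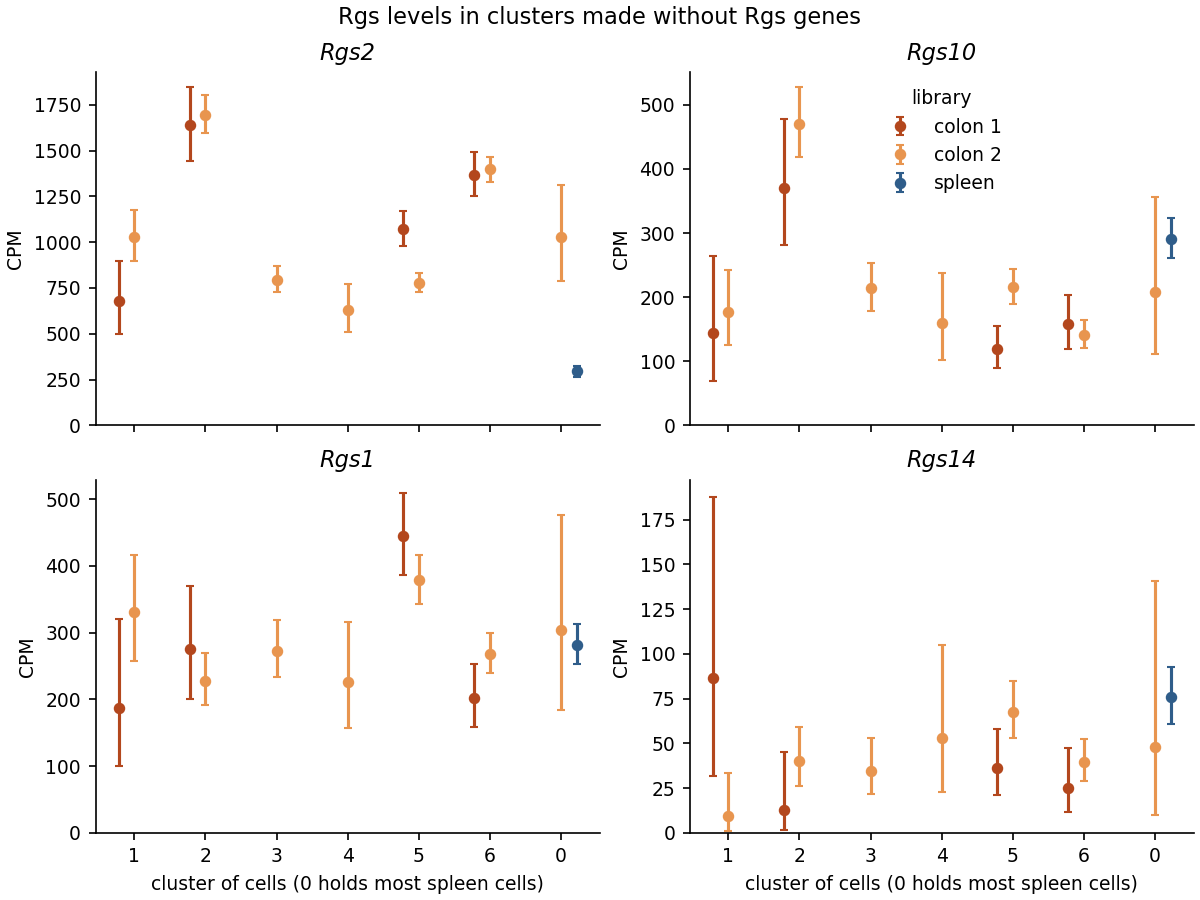
CPM of Rgs2, Rgs10, Rgs1 and Rgs14 in each cluster of cells with at least 30 cells of a library, with 95% exact Poisson intervals, for colon 1, colon 2 and spleen. Rgs2 and Rgs10 are highest in cluster 2 (1637.2 and 1696.7 CPM, and 370.1 and 470.8 CPM), and Rgs1 is highest in cluster 5.

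Within spleen, cells were also split by their UMIs of a list of 12 genes of resting T cells of lymphoid organs, such as Id3, Tcf7 and Igfbp4, after thinning. This split was chosen after the data were seen. Spleen cells with 0, 1 or 2, and 3 or more of these UMIs made 28.7%, 33.8% and 37.5% of thinned spleen cells. Rgs2 in these spleen cells was at 448.9 CPM (355.4 to 559.4), 260.9 CPM (195.97 to 340.4) and 204.3 CPM (150.1 to 271.7) in that order, and Rgs16 was at 79.5 CPM (43.5 to 133.5), 24.2 CPM (7.84 to 56.4) and 21.7 CPM (7.06 to 50.7). The Rgs2 intervals of the first and last of these groups did not overlap, while the Rgs16 intervals did. Rgs14 had 5, 19 and 23 UMIs in the same order, with overlapping intervals, the first at 28.4 CPM (9.22 to 66.3) and the middle one at 91.8 CPM (55.3 to 143.3). Rgs10 was level across the spleen strata at 284.1, 323.7 and 295.7 CPM. In colon the Rgs2 strata were at 1183.5 CPM for 0 and 1289.6 CPM for 1 or 2 in colon 1, and at 1109.7, 1148.3 and 1444.4 CPM from 0 to 3 or more in colon 2, each above the highest spleen stratum.

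Genes of the dissociation and heat-shock list are given beside the Rgs results because digestion was used in colon only. By the 2-fold threshold 7 of its 19 measured genes were higher and 1 (Zfp36) lower, beside 10.4% and 5.40% of all measured genes. Summed over the list, colon 1 and colon 2 had 8811.5 and 9996.8 CPM and spleen 5153.1 CPM. The list was uneven, with log2 ratios of -0.11 and 0.05 for Fos, 0.26 and -0.04 for Btg2, -0.33 and -0.38 for Hspe1 and -1.45 and -1.18 for Zfp36, all 4 named after their values were seen. The 4 genes with the largest ratios follow. Fosb, a subunit of AP-1, was at 392.6 and 427.7 CPM in the colon libraries and 17.5 CPM in spleen. Atf3 stood at 31.9 and 55.1 CPM in colon with 0 UMIs in spleen, and Hspa1b at 375.03 and 468.3 CPM in colon and 11.1 CPM in spleen. Hspa1a, with 0 UMIs in spleen, was 49.8-fold (colon 1) and 59.003-fold (colon 2) higher when the spleen count was set to a floor of 3. With that floor the lower bounds of its log2 ratios were 4.06 and 4.33. Cells with a UMI of Fosb, Hspa1a or Hspa1b made 32.8% of colon 1, 38.1% of colon 2 and 2.27% of spleen.

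Rgs2 lay far above its spleen level in colon cells with none of these UMIs as well. In colon 1 it was at 1101.4 CPM (1002.6 to 1207.3) in cells with such a UMI and 1154.6 CPM (1083.1 to 1229.7) in cells without, and in colon 2 at 1201.2 CPM (1146.9 to 1257.3) and 1072.98 CPM (1031.8 to 1115.4). Without the cells that held such a UMI, the mean log2 ratio of Rgs2 over spleen was 1.92. All colon cells went through digestion, so those without such a UMI are no undigested control. The part of dissociation in the Rgs2 level was not tested. Rgs1 was at 338.2 and 322.97 CPM in cells with such a UMI of colon 1 and colon 2, and at 281.2 and 278.1 CPM in cells without, beside 287.3 CPM in spleen cells without. In colon 1 Rgs14 was at 62.8 CPM (41.02 to 92.02) in cells with and 17.9 CPM (10.004 to 29.5) in cells without, while in colon 2 it was at 51.5 CPM (40.8 to 64.2) and 41.9 CPM (34.1 to 51.02). Leaving out cells with such a UMI moved the mean log2 ratio of Rgs14 to -1.46, against -0.92 with all cells.

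Rgs1 and Rgs2 are also transcribed by B cells and myeloid cells. The macrophage and dendritic cell list summed to 237.8 and 234.4 CPM in colon 1 and colon 2 and to 105.1 CPM in spleen, of which Cst3 made 221.03, 199.1 and 101.9 CPM. C1qa had 1 and 16 UMIs in the colon libraries and 0 in spleen, and Csf1r had 0 UMIs throughout. The B cell list summed to 69.4 and 106.98 CPM in the colon libraries and 64.5 CPM in spleen. Cells with at least 2 markers of 1 other cell type numbered 7, 30 and 3 in colon 1, colon 2 and spleen, and without them the mean log2 ratio of Rgs2 stayed within its counting interval. No doublet caller was run. Without the 5% of cells with the most UMIs in each library it was 1.94.

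The G proteins that RGS proteins act on differed unevenly. Of 8 measured alpha subunits 3 passed 2-fold upward in both colon libraries and 0 downward, beside 10.4% and 5.40% of all measured genes. These were Gnaq and Gna15, of the Gq class on which Rgs2 acts, and Gna13, of the G12/13 class. Gnaq stood at 45.5 and 50.6 CPM in colon and 10.4 CPM in spleen, with log2 ratios of 2.14 (1.25 to 3.13) and 2.29 (1.48 to 3.22). Gna15 stood at 74.2 and 102.4 CPM in colon and 24.7 CPM in spleen, and Gna13 at 430.1 and 531.8 CPM in colon and 172.8 CPM in spleen. Gna11, also of the Gq class, had log2 ratios of 1.28 (0.26 to 2.38) and 0.94 (0.05 to 1.96). Among 9 beta and gamma subunits 1 was higher, Gng2, at 152.4 and 180.001 CPM in colon and 62.9 CPM in spleen, and 0 were lower, a share near the 10.4% and 5.40% of all measured genes. The log2 ratios of Gng12 were -0.85 and -1.33, those of Gnb1 0.76 and 0.79, and those of Gng5 0.48 and 0.53. The medians of the alpha list were 0.83 and 0.76, and those of the beta and gamma list were 0.40 and 0.35, beside 0.00 and 0.01 over all measured genes.

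Of 9 measured receptor kinases, arrestins and other regulators, 0 passed the threshold in either direction, beside 10.4% upward and 5.40% downward over all measured genes. Grk4, Gprasp1, Arrb1 and Grk6 had the largest mean log2 ratios in size, from -0.79 to 0.67. Of 18 measured effectors 6 were higher in colon and 0 lower, beside 10.4% and 5.40% of all measured genes. They included the cAMP phosphodiesterases Pde4d, at 146.02 and 186.4 CPM in colon and 27.1 CPM in spleen, and Pde4b, at 145.2 and 158.6 CPM in colon and 50.2 CPM in spleen. Pde4a had 19 and 38 UMIs in colon and 2 in spleen, and the phospholipase Plcb4 had 10 and 21 UMIs in colon and 1 in spleen, with wide log2 intervals of 0.51 to 8.76 and 0.12 to 8.12. The other 2 were Prkar1a, a regulatory subunit of the cAMP-dependent kinase, at 706.96 and 795.3 CPM in colon and 273.9 CPM in spleen, and the guanine nucleotide exchange factor Arhgef11, at 19.9 and 17.6 CPM in colon and 7.17 CPM in spleen. They were named after their values were seen.

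Of the G protein lists, receptors held the most genes past the threshold. Of the 35 G protein-coupled receptors measured, 18 passed 2-fold upward in each colon library and 3 passed it downward, beside 10.4% and 5.40% of all measured genes. The list had median log2 ratios of 1.02 and 1.17. Cxcr6, a chemokine receptor, stood at 106.9 and 99.6 CPM in colon, against 1 UMI in spleen, with log2 ratios of 7.07 (4.57 to 12.38) and 6.97 (4.48 to 12.27). Ccr1 stood at 75.8 and 81.4 CPM in colon, against 2 UMIs in spleen, with ratios of 5.57 (3.68 to 8.64) and 5.68 (3.81 to 8.73). The leukotriene B4 receptor Ltb4r1 was at 100.5 and 156.8 CPM in colon and 4.78 CPM in spleen. The 3 lower receptors, named after their values were seen, were S1pr1 at 75.01 and 100.6 CPM in colon and 364.7 CPM in spleen, Gpr83 at 12.8 and 18.9 CPM in colon and 66.9 CPM in spleen, and Gpr174 at 49.5 and 41.6 CPM in colon and 103.5 CPM in spleen.

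**Figure D5:**
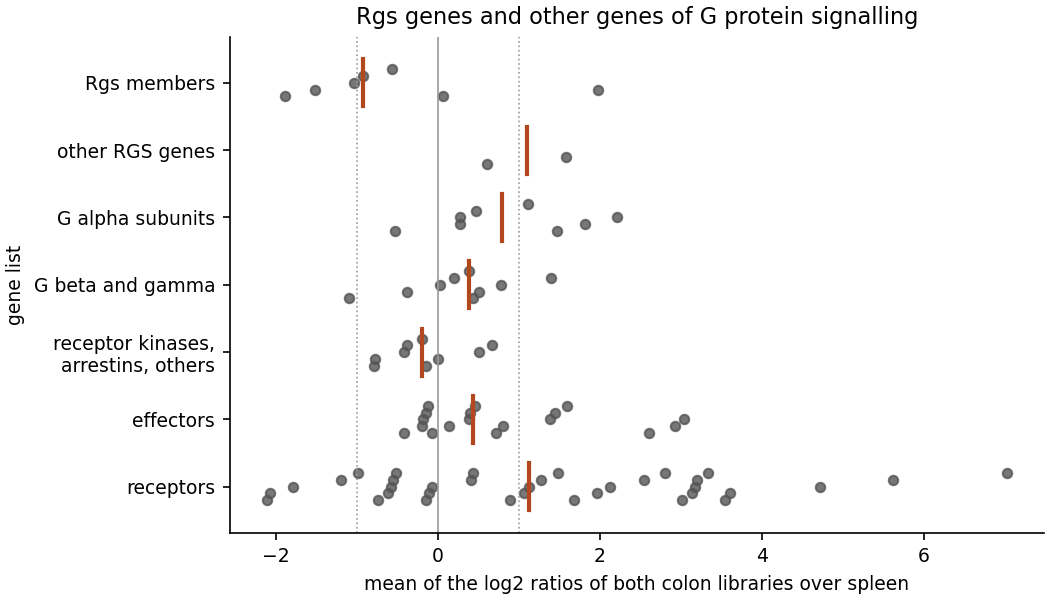
Each point is a gene with at least 30 UMIs over the 3 libraries, placed by the mean of its log2 ratios in both colon libraries over spleen, and the vertical bar is the median of the list. Dotted lines mark 2-fold. The Rgs genes spread from Rgs3 at -1.88 to Rgs2 at 1.98, while receptors reach 7.02 for Cxcr6.

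Among 16 other genes of the RGS family in the table, 7 had 0 UMIs in all 3 libraries and 2 were measured with at least 30 UMIs. Rgs9, of the R7 subfamily, had 18 UMIs in colon 1, 76 in colon 2 and 7 in spleen, with log2 ratios of 1.37 (0.04 to 2.87) and 1.80 (0.69 to 3.16). Rgs20, an RZ gene like Rgs19, had 16 and 55 UMIs in colon and 11 in spleen, with ratios of 0.54 (-0.65 to 1.80) and 0.68 (-0.27 to 1.76). Of 12 Treg identity genes 4 were higher in colon and 3 lower, beside 11.7% and 4.45% of all eligible genes. Ctla4 was at 2636.4 and 2244.8 CPM in colon and 480.1 CPM in spleen, Tnfrsf4 at 1885.5 and 2005.5 CPM in colon and 423.6 CPM in spleen, Nrp1 at 41.5 and 50.8 CPM in colon and 324.9 CPM in spleen, and Ikzf4 at 12.8 and 15.1 CPM in colon and 50.2 CPM in spleen.

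The genes whose pattern was most like each Rgs gene were found by Pearson's r of log2(CPM + 10) over 12 units, each the cells of 1 library in 1 cluster with at least 30 cells, among 3230 genes. The units share libraries, depth and, in 11 of 12 cases, the tissue colon, so the values describe these libraries only. Rgs2 was most like Lpxn (0.892), Ciapin1 (0.888) and Dusp10 (0.886). Rgs1 was most like Smim15 (0.815) and Hvcn1 (0.775), and Rgs10 was most like Dgkd (0.864) and Zfp281 (0.817). All such values are the highest found among 3230 genes over 12 units, and how high they would reach by chance was not tested. The low counts of the other genes leave their values still less certain. Rgs14 was most like Apbb1ip (0.934), Sit1 (0.871) and Dnajc9 (0.871), and Rgs19 was most like Cbx3 (0.929), Rassf1 (0.909) and Fam189b (0.909). Rgs3 was most like Ccdc85b (0.883), Micu2 (0.872) and Cdc42se1 (0.825), and Rgs16 was most like Imp3 (0.862), Smndc1 (0.849) and Tagap (0.842). Between members, Rgs1 and Rgs2 had an r of -0.02 over the same units, and the widest values were 0.61 for Rgs16 with Rgs19 and -0.62 for Rgs2 with Rgs14.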

How the data were processed

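Single Foxp3+ Tregs were profiled by inDrops, a droplet method with oligo-dT priming, in vitro transcription and NextSeq500 sequencing, per the labels' protocols. The deposited table holds UMI counts per gene and cell, whole numbers that were not normalized. TopHat2 and SAMtools, with the mm10 build, are listed in the submitters' processing notes. How UMIs were collapsed, cells chosen and genes annotated is not given in the sources used here. Every column matched a labelled cell, and 0 were left out.

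Counts were summed per library and divided by its total over all genes (CPM). Each colon library was set over spleen with an exact conditional binomial interval. CPM has exact Poisson intervals and shares of cells have Clopper-Pearson intervals, with scipy 1.17.1 in Python 3.11.15. No test was run, since each tissue is 1 sample. The calculation was tested on simulated Poisson counts, which lack the spread between cells seen in the real counts. Named were the 7 Rgs genes, up to 4 genes of each list by size of the mean log2 ratio among those with at least 30 UMIs, and for each Rgs gene the 3 genes most correlated with it (some named by these rules are not reported here), with mitochondrial, ribosomal protein, immunoglobulin and T cell receptor genes left out. From the correlated genes, mitochondrial ribosomal protein genes and genes with only a provisional name were left out too. Lists of other cell types were used for sums and shares, and clusters are described by some of their leading genes. A few other genes, marked in the text, were chosen after their values were seen. The members and lists were chosen with earlier results of these data known.

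Clustering used scanpy 1.11.5 with 2000 variable genes, 20 components, 15 neighbours and Leiden resolution 0.8 (igraph 0.11.9), with no batch correction. Gene positions are from GENCODE for the same build. Alternatives were TMM scaling (edgeR 4.0.16 in R 4.3.3), scaling by the median of ratios, totals that leave out ribosomal protein genes, leaving out cells or a colon library, averaging cells equally, no minimum level, a 4-fold threshold, other thinning and other resolutions. Leaving out cells whose barcode occurs in more than 1 library and the split by resting genes were added after seeing the data.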

Additional observations from a re-analysis of the deposited data

How the results depend on the processing

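With ribosomal protein genes left out of the totals, the median log2 ratio of eligible genes moved from 0.02 to -0.19 and the ratios of all Rgs genes moved down with it. Rgs1 was then at -0.14 and Rgs2 at 1.77, 3 Rgs genes were lower by 2-fold rather than 2, and 7.80% of eligible genes were lower rather than 4.45%. Without cells holding Fosb, Hspa1a or Hspa1b, Rgs14 was at -1.46. Its cause was not tested. At a 4-fold threshold 0 Rgs genes were higher and 0 lower, beside 4.82% and 0.689% of the eligible genes. With no minimum level, 10.4% of 9580 genes were higher and 5.40% lower. Leiden resolution 1.2, which made 11 clusters, widened the range between colon clusters to a log2 ratio of 1.19 for Rgs1 and 1.31 for Rgs2. Rgs14 was past 2-fold lower without colon 2, at a log2 ratio of -1.16, but not without colon 1, at -0.68. Rgs16, which was below the minimum level, was at -0.97 and -1.08 in the same order. The mean log2 ratio ran between -2.13 and -1.62 for Rgs3, -1.77 and -1.25 for Rgs19, and -0.76 and -0.36 for Rgs10 when either colon library was left out. TMM and median of ratios scaling, equal weight for cells, leaving out cells with markers of another type, the cells with the most UMIs or the 50 cells with a shared barcode (added after seeing the data) left each mean ratio within its counting interval. Thinned to 500 UMIs, the mean ratio of the colon shares of Rgs10 to its spleen share was 0.870, against 0.666 at 1000 UMIs and 0.719 unthinned. Each thinning was 1 random draw. With 1 spleen library, its own spread between animals is not known, and the 18 to 98 UMIs per colon library of Rgs3, Rgs16 and Rgs19 set how well their ratios are known.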

Other observations

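Rgs1 and Rgs2 sit in a run of RGS genes on chromosome 1. Rgs13 lies between them and Rgs18 beyond Rgs1, and both had 0 UMIs in the colon libraries and in spleen. The upper bound of the exact interval at 0 UMIs was 2.94 CPM in colon 1, 0.942 CPM in colon 2 and 2.94 CPM in spleen. Rgs13 and Rgs18 were named after their values were seen.

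In cells of colon 2 with a UMI of Rgs10, Rgs14 was found in 6.23% (3.73 to 9.67), against 2.82% (2.03 to 3.80) of cells without. In colon 1 the shares were 4.05% (0.844 to 11.4) and 2.80% (1.57 to 4.57), and in spleen 5.30% (2.16 to 10.6) and 6.24% (4.25 to 8.78). The colon 2 intervals overlapped slightly, and this pair was 1 of 21 pairs of members looked at in each library.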
